A study of Mus musculus with 12 samples.

Results

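Osteosarcoma, a tumour of bone-forming cells, was set against normal bone marrow in mice across all genes of a whole-genome bead array. The comparison takes the 4 arrays labelled osteosarcoma and the 2 arrays labelled bone marrow, 6 of the 12 arrays of the series. The other arrays, 4 of leiomyosarcoma (a tumour of smooth muscle type) and 2 of muscle, entered the fit for its estimate of spread and serve below as a second point of reference. All 4 osteosarcomas and both bone marrows came as fresh-frozen tissue from untreated mice whose genotype is labelled p53 flow/flox, and the labels speak of transgenic animals with a p53 mutation that were followed until a tumour or limb paralysis appeared. The genotype is therefore shared by tumours and marrow, and p53 itself was not analysed here. The labels name no Cre driver, no age and no sex, and do not say whether the marrow donors bore a tumour. Each sample has its own code in the labels, but the codes of bone marrow 2 and of a muscle sample share their first part, HL53. Whether these came from the same animal is not given. Separate animals are not stated for any sample, so p-values measure the spread between these samples.

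Of 45281 probes per array, 16720 to 17115 were detected in osteosarcoma and 14749 to 15314 in bone marrow. Values below are log2 intensities after normalisation, and the fold change of a gene is the osteosarcoma mean minus the bone marrow mean on that scale. The 4 osteosarcomas correlated with each other at Pearson's r of 0.916 to 0.956 across genes, the bone marrows at 0.983, and osteosarcoma with bone marrow at 0.699 to 0.752. The background constant that had been subtracted from each array lay between 99.32 and 105 in osteosarcoma and at 81.18 and 82.04 in bone marrow, so the array set and the tissue cannot be told apart except through the leiomyosarcoma arrays, which span both ranges. Xist, the RNA that silences 1 X chromosome in female cells, read 11.93, 9.53, 10.48 and 11.17 in osteosarcoma, against 4.63 and 4.52 in bone marrow. It was at least 39.5-fold higher in the tumours (adjusted p = 0.000967; log2 change 6.21, and 3.97 as the mean of its detected probes) and was singled out after its values were seen. Xist read 4.51 to 4.63 in leiomyosarcoma, which osteosarcoma exceeded by 6.21. On the Y chromosome Eif2s3y, Kdm5d and Uty lay between 4.44 and 5.35 in osteosarcoma and between 4.83 and 5.68 in bone marrow and none passed the test. Eif2s3y and Uty were lower in all tumours than in both marrows, as were 27.6% of all genes. Uty was detected on both bone marrow arrays and on no osteosarcoma array. Xist moves with the groups, no sex is given, and its part in the other results was not tested. In bulk tissue, fewer cells of a type and less RNA per cell cannot be told apart either.

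Bone is built by osteoblasts, mesenchymal cells that secrete type I collagen and then mineralise it. Their formation depends on the transcription factors Runx2 and Sp7, and osteoclasts, cells of the monocyte lineage, resorb the matrix again. Bone marrow fills the cavities of bone and is made mostly of blood-forming cells, among which neutrophils and their precursors, red cell precursors and lymphocytes are the most abundant. Osteosarcoma cells keep features of osteoblasts, including the making of bone matrix, and loss of p53 function is a frequent event in this tumour.

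Of 11754 genes tested, 1745 were higher in osteosarcoma (14.8%) and 1528 were lower (13%), at an adjusted p under 0.05 and a log2 change of at least 1. The median gene changed by 0.03, the called higher genes by a median of 1.95 and the called lower genes by -1.75. Changes were large at both ends: 103 genes had a log2 change over 5, and 63 had one under -5. Of the higher genes, 706 were detected on neither bone marrow array, while of the lower genes 259 were detected on no osteosarcoma array. In such cases the fold is a lower bound, given as "at least N-fold", set against the lowest signal that counts as detected on those arrays. All 4 osteosarcomas lay above both bone marrows for 29.2% of all genes and below both for 27.6%, so that the groups did not overlap for 56.8% either way. The bone marrow comparison can be set beside that with leiomyosarcoma, which shares the osteosarcoma arrays. Of the 1745 higher genes, 291 were also called above leiomyosarcoma, 105 were called below it and 1349 were not called. Over all genes, 3.31% were called higher than in leiomyosarcoma and 4.34% lower. With the 2 array sets as a block, 1105 genes were higher and 1110 lower.

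**Figure D1:**
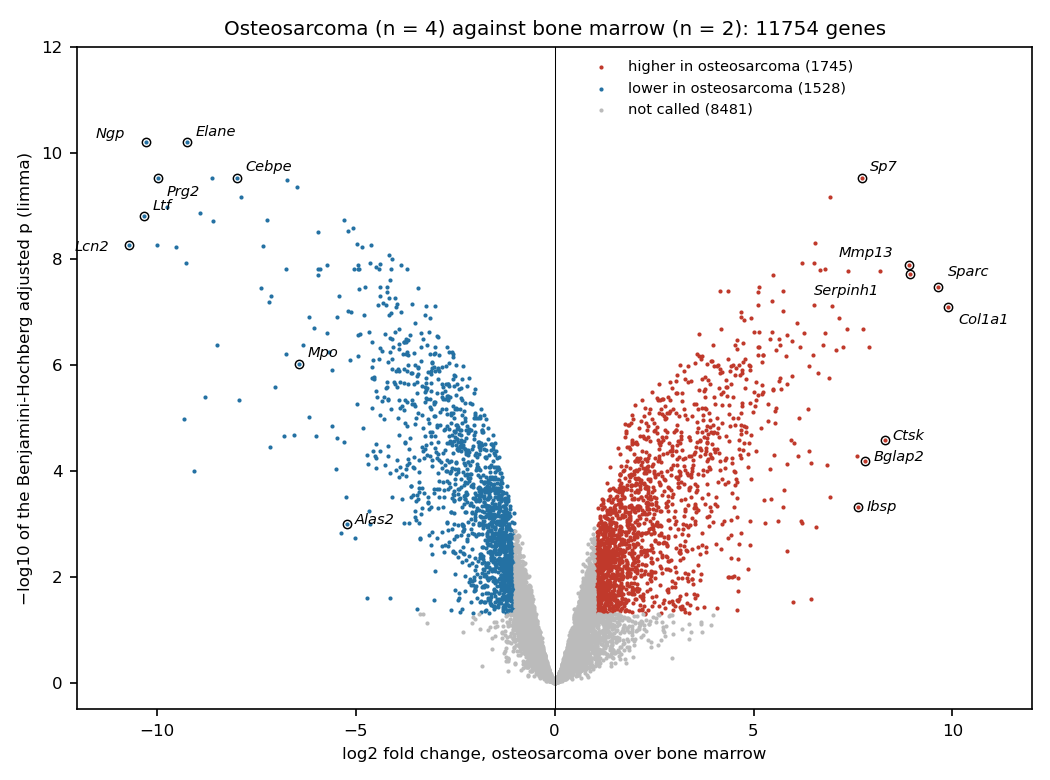
Each point is 1 of 11754 genes, with the log2 fold change of osteosarcoma over bone marrow on the horizontal axis and the -log10 of the adjusted p on the vertical axis. Red points are the 1745 higher genes and blue points the 1528 lower ones. Bone genes such as Col1a1 (9.88) and Sp7 (7.71) stand at the right, and neutrophil genes such as Ngp (-10.28) and Elane (-9.23) at the left.

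The 10 largest rises were Col1a1, Sparc, Serpinh1, Mmp13, Ctsk, Scarf2, Ptgis, Bglap2, Timp1 and Sp7. Most of them make, fold, mineralise or digest bone matrix. Scarf2, a scavenger receptor family member, read 14.27, 13.55, 13.68 and 13.03 in osteosarcoma, against 5.69 and 5.23 in bone marrow (log2 change 8.17 ± 0.37 SE, adjusted p = 1.66e-08). Ptgis, the prostacyclin synthase, read 12.65, 13.63, 12.76 and 12.44 in osteosarcoma and was undetected in bone marrow at 4.91 and 5.0 (at least 168-fold higher, adjusted p = 4.64e-07). The groups were far apart for both genes, and neither differed from leiomyosarcoma beyond the test (0.85 and 1.00). Ptgis changed by 7.06 with the array sets as a block. The 10 largest falls were Lcn2, Ltf, Ngp, Retnlg, Prg2, Camp, Ear3, S100a9, Pglyrp1 and Elane, granule and secreted proteins of neutrophils and, for Prg2 and Ear3, of eosinophils.

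Gene lists for the cell types and pathways that fit these tissues are described by the number of measured genes called and by their median, beside 14.8% higher, 13% lower and a median of 0.03 over all genes. A gene that was measured had to be detected somewhere, often in the tissue where it is high, so these counts describe the measured genes only. A second median follows in brackets, in which genes undetected in 1 of the tissues stand at their bound.

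**Figure D2:**
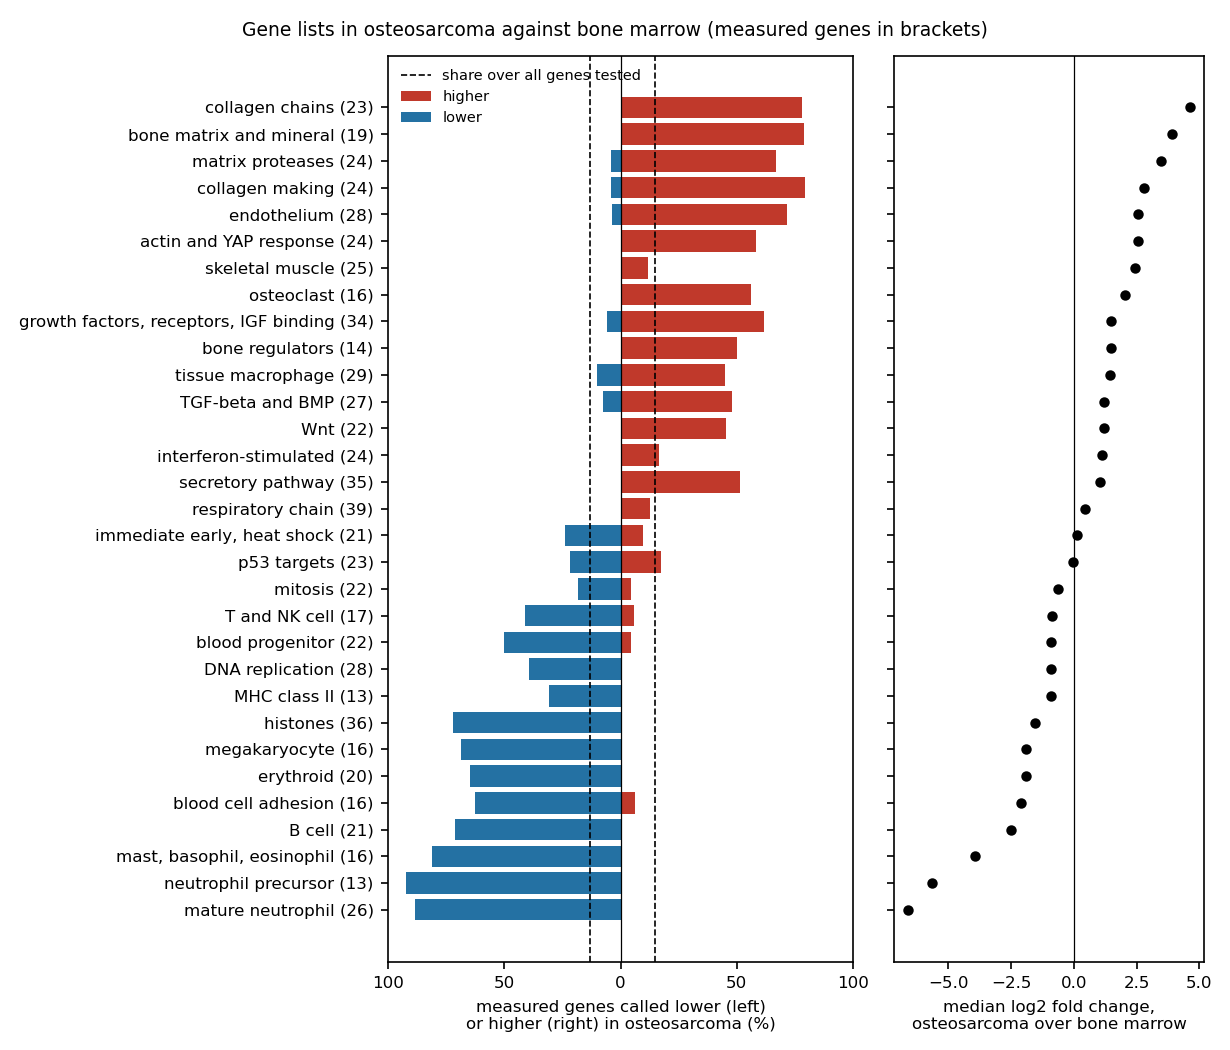
For 31 gene lists, bars give the percentage of measured genes called lower (left, blue) or higher (right, red) in osteosarcoma, with dashed lines at the shares over all genes, and points give the median log2 fold change. Collagen chains (18 of 23 higher) stand at the top and mature neutrophil genes (23 of 26 lower) at the bottom.

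The regulators of the osteoblast lineage came first. Of 14 measured (18 listed), 7 were higher in osteosarcoma and 0 lower, with a median of 1.49 (1.27). Sp7, the osteoblast transcription factor osterix, read 12.39, 12.45, 12.40 and 11.93 in osteosarcoma, against 4.60 and 4.56 in bone marrow. All 4 tumours stood at nearly the same level and the gene was undetected in marrow. Sp7 was at least 113-fold higher (adjusted p = 2.92e-10), and it also exceeded leiomyosarcoma by 7.66. Pth1r, the parathyroid hormone receptor of osteoblasts, read 9.96, 10.30, 11.50 and 10.25 in osteosarcoma and was undetected in bone marrow at 4.74 and 4.59 (at least 32.6-fold higher, adjusted p = 2.32e-06). Dlx3, a homeobox factor of bone and tooth, and Tnfrsf19, a receptor of the TNF family, rose by 3.35 and 3.47 and also exceeded leiomyosarcoma (3.06 and 3.84). Twist1, which holds back osteoblast maturation, rose by 2.11 in osteosarcoma over bone marrow and did not differ from leiomyosarcoma beyond the test (-0.33). Runx2 was not measured here. Averaged over all detected probes, the changes of Sp7, Pth1r and Tnfrsf19 were 5.78, 4.45 and 2.43, and with the array sets as a block those of Pth1r, Tnfrsf19 and Dlx3 were 6.71, 4.29 and 3.96.

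Proteins of the bone matrix and its mineral followed. Of 19 measured (24 listed), 15 were higher and 0 lower, with a median of 3.91 (3.31), and 10 of them also exceeded leiomyosarcoma. Osteocalcin, the vitamin K-dependent protein of mature osteoblasts, is encoded in the mouse by neighbouring copies. Bglap2 read 14.76, 15.30, 11.14 and 11.46 in osteosarcoma and was undetected in bone marrow at 5.28 and 5.44 (at least 206-fold higher, adjusted p = 6.46e-05). Bglap read 13.18, 14.16, 9.47 and 9.79 in osteosarcoma and was undetected in bone marrow at 4.57 and 4.89 (at least 72.4-fold higher, adjusted p = 0.000307). Both genes were high in osteosarcomas 1 and 2 and lower in osteosarcomas 3 and 4, yet all stood above marrow. The copies are near-identical, so which of them gave the signal is uncertain, and the other detected probe of Bglap gave 1.36. Ibsp, the integrin-binding bone sialoprotein, had another pattern: 14.50, 9.58, 14.49 and 15.30 in osteosarcoma, against 5.10 and 6.58 in bone marrow (log2 change 7.63 ± 1.24 SE, adjusted p = 0.000485), with osteosarcoma 2 low. Alpl, the alkaline phosphatase that frees phosphate for mineral, was likewise lowest in osteosarcoma 2, at 11.86, 9.48, 12.40 and 11.80 in osteosarcoma against 6.30 and 6.35 in bone marrow (log2 change 5.06 ± 0.60 SE, adjusted p = 4.33e-05).

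Sparc, the collagen-binding osteonectin, read 15.61, 15.63, 15.08 and 15.13 in osteosarcoma, against 5.92 and 5.55 in bone marrow (log2 change 9.63 ± 0.47 SE, adjusted p = 3.34e-08). The tumours were tightly grouped, and Sparc was also high in leiomyosarcoma, from which osteosarcoma differed by 1.68. Bmp1, the protease that trims procollagen, rose by 7.08, and its 3 other detected probes gave 1.33 to 5.58. Averaged over detected probes, the changes of Sparc, Bmp1 and Bglap were 7.50, 4.67 and 4.14, and with the array sets as a block that of Sparc was 10.33. Ifitm5, a membrane protein of mineralising osteoblasts, and Smpd3, a sphingomyelinase needed for mineral, rose by at least 20.7-fold and at least 26.4-fold and exceeded leiomyosarcoma by 4.72 and 4.39; both were chosen after their values were seen. Smpd3 changed by 5.41, and by 6.68 with the block. Dmp1, a marker of osteocytes (osteoblasts that have become buried in matrix), did not pass the test: it read 5.66, 4.82, 4.98 and 4.63 in osteosarcoma, against 4.73 and 4.69 in bone marrow. Of 5 measured osteoblast markers all 5 were higher, and of 2 measured osteocyte markers 0 were, so the tumours carried the markers of osteoblasts, while those of osteocytes did not pass the test. Leaving out single arrays moved Ibsp between 6.89 (without bone marrow 1) and 8.93 (without osteosarcoma 2), with 7.02 without osteosarcoma 4 and 8.37 without bone marrow 2. It moved Bglap to 6.09, 7.65 and 7.54 without osteosarcoma 2, 3 and 4, Bglap2 to 7.09 and 8.48 without osteosarcoma 2 and 3, and Alpl to 5.69 without osteosarcoma 2, and all of these kept their calls.

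The promoters of Bglap and of Mmp13, a collagenase that rose with it, are shown because both genes are known targets of Runx2. Each is the run of 250 bases before the start of the gene in the RefSeq table (GRCm38.p6), printed 5′ to 3′ on the strand of the gene. Bglap lies at chr3:88384467-88384716 (minus strand) and Mmp13 at chr9:7272264-7272513 (plus strand). Capitals mark matches on either strand to the RUNX motif TGTGGT and, in Mmp13, to the AP-1 motif TGAGTCA, which do not overlap.
Bglap: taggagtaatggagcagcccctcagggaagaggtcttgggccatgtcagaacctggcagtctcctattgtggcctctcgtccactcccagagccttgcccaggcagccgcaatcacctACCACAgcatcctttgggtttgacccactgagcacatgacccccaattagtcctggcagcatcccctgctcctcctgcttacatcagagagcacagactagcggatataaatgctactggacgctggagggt
Mmp13: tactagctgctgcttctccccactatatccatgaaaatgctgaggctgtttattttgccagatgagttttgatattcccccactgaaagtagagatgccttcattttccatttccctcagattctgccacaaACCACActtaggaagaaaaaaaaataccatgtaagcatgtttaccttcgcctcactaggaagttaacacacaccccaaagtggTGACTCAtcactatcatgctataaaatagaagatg
The RUNX match begins 132 bases before the start of Bglap and 118 before that of Mmp13, and the AP-1 match 35 before that of Mmp13. A RUNX match was found in 14.0% of all 32851 promoter windows of this length, in 13.3% of the tested genes with a window, in 11.9% of the called higher genes with a window and in 17.8% of the called lower ones. The AP-1 match was found in 4.5% of windows and of tested genes, in 4.6% of higher and 4.3% of lower genes. These are letters in a window and not sites.

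**Figure D3:**
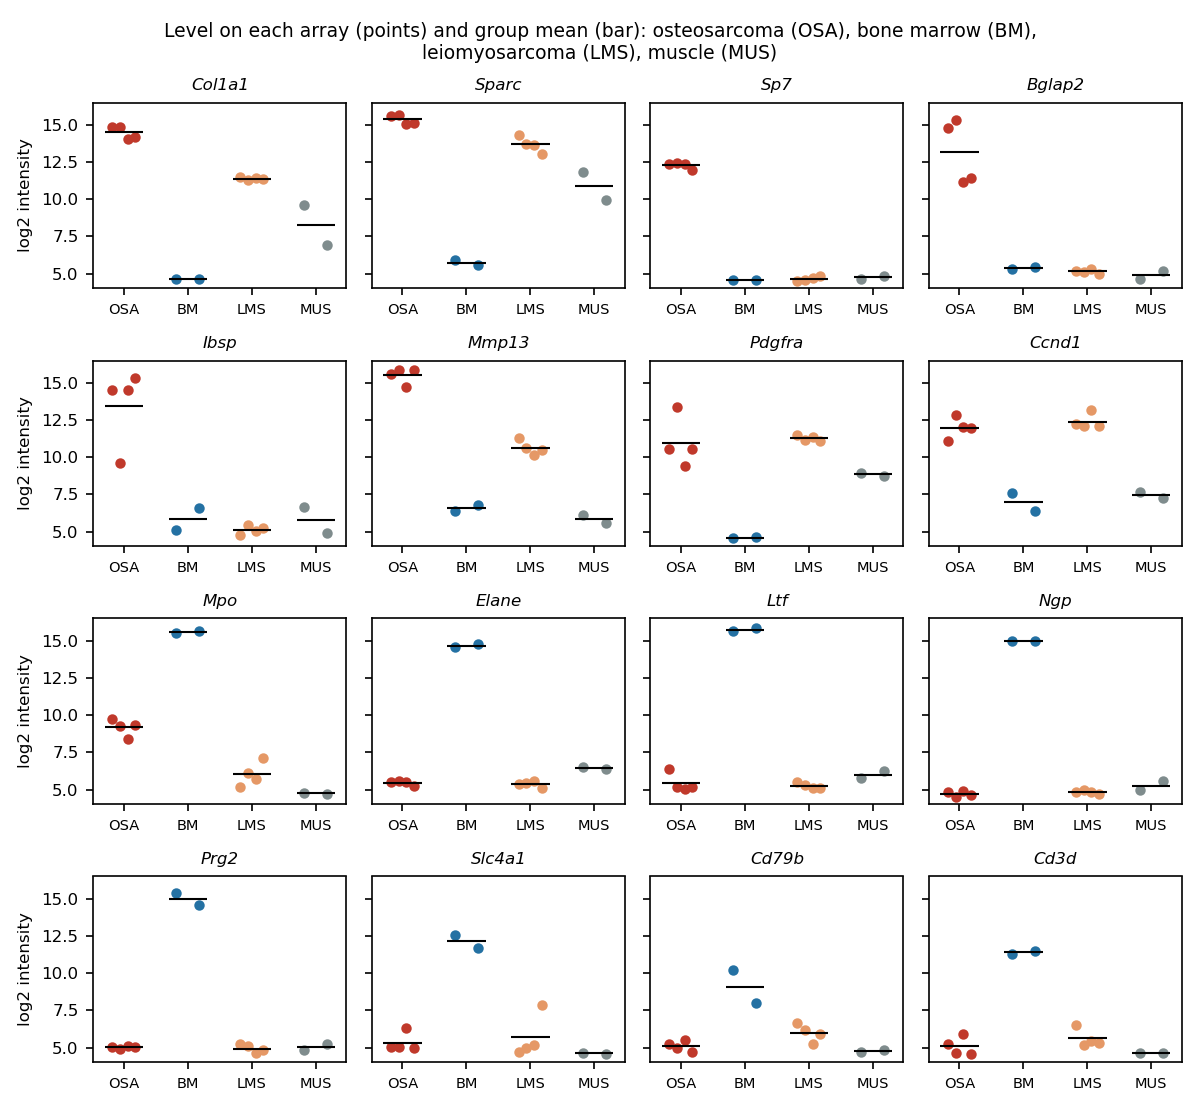
Log2 intensity of 16 genes on each array (points) with the group mean (bars), for osteosarcoma (OSA), bone marrow (BM), leiomyosarcoma (LMS) and muscle (MUS). Sp7, Bglap2 and Ibsp are high on the osteosarcoma arrays alone, Col1a1 and Sparc are high in both tumours but higher in osteosarcoma, Pdgfra is high in both, and the 8 blood genes of the lower rows are high in bone marrow.

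Collagen chains rose widely. Of 23 measured (27 listed), 18 were higher and 0 lower, with a median of 4.63 (3.80), and 6 also exceeded leiomyosarcoma while 3 were below it. Col1a1, a chain of the type I collagen that makes up most of bone matrix, read 14.87, 14.88, 14.04 and 14.19 in osteosarcoma and was undetected in bone marrow at 4.62 and 4.61. The tumours lay close together and far above marrow (at least 519-fold higher, adjusted p = 8.12e-08). Its partner Col1a2 was at least 85.3-fold higher. Osteosarcoma exceeded leiomyosarcoma by 3.11 for Col1a1 and 2.56 for Col1a2. Col5a1, which governs fibril width, rose by 6.40, and Col6a1, a chain of the pericellular collagen VI, by 6.86 (6.14 without osteosarcoma 4, 7.53 without osteosarcoma 2); neither differed from leiomyosarcoma beyond the test (0.80 and -0.12). Col22a1, a collagen of tissue junctions, read 11.27, 13.17, 12.89 and 11.50 in osteosarcoma, against 6.36 and 4.93 in bone marrow (log2 change 6.57 ± 1.21 SE, adjusted p = 0.00118), and exceeded leiomyosarcoma by 6.17. Its change was 7.28 without bone marrow 1 and 5.85 without bone marrow 2, and 8.73 with the array sets as a block. As the mean of its detected probes, Col6a1 changed by 5.01.

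The machinery that folds, modifies and crosslinks collagen rose with it: of 24 measured (31 listed), 19 were higher and 1 lower, with a median of 2.80 (2.33). Serpinh1, the collagen chaperone HSP47, read 15.84, 15.75, 14.61 and 15.56 in osteosarcoma, against 6.19 and 6.84 in bone marrow (log2 change 8.92 ± 0.41 SE, adjusted p = 1.93e-08). P4ha2 and Plod2, which hydroxylate proline and lysine in collagen, were at least 67.5-fold and at least 19.7-fold higher, and Pcolce, which speeds procollagen trimming, at least 99.2-fold. Lox, the crosslinking lysyl oxidase, read 11.53, 8.36, 11.58 and 11.54 in osteosarcoma and was undetected in bone marrow at 4.47 and 4.79. Osteosarcoma 2 stood apart from the other tumours, and Lox was at least 38.8-fold higher (adjusted p = 5.25e-05), with a log2 change of 6.12 with osteosarcoma 2 and 6.92 without it. The exception was Tmem38b, an ion channel of the endoplasmic reticulum needed for collagen making in bone, which read 8.97, 8.10, 8.15 and 8.57 in osteosarcoma, against 10.27 and 10.53 in bone marrow (log2 change -1.95 ± 0.32 SE, adjusted p = 0.000505). The wider secretory pathway rose too: of 35 measured (37 listed), 18 were higher and 0 lower, with a median of 1.04 (1.04). Kdelr3, a retrieval receptor of the Golgi, was at least 73.6-fold higher, Sec13 and Lman1, parts of the export route, rose by 1.94 and 1.71, though Lman1 was not called with the array sets as a block (adjusted p = 0.0596 in that limma fit), and Pdia5, a disulphide isomerase, by 2.82. Averaged over detected probes, Serpinh1 and P4ha2 changed by 7.96 and 5.76, and with the block Plod2 and Pcolce changed by 3.91 and 8.37. Xbp1, a regulator of the secretory pathway singled out after its values were seen, did not differ beyond the test (-0.06).

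Matrix-degrading proteases were mostly higher, 16 of 24 measured (28 listed) against 1 lower, with a median of 3.46 (2.71). Mmp13, the collagenase of osteoblasts and cartilage whose promoter is printed above, read 15.56, 15.89, 14.70 and 15.89 in osteosarcoma, against 6.38 and 6.80 in bone marrow. It was near the top of the scale on all 4 tumour arrays (log2 change 8.92 ± 0.38 SE, adjusted p = 1.31e-08) and exceeded leiomyosarcoma by 4.87. Mmp2, the gelatinase of mesenchyme, was at least 77.3-fold higher, and Mmp14, its membrane-bound activator, rose by 7.24; neither differed from leiomyosarcoma beyond the test (-0.54 and 0.31). The lower gene was Mmp8, the collagenase of neutrophils, which was undetected in osteosarcoma at 4.83, 4.59, 4.84 and 4.78 and read 7.85 and 8.13 in bone marrow (at least 6.78-fold lower, adjusted p = 7.62e-08). Mmp9, a gelatinase of both neutrophils and osteoclasts chosen after its values were seen, read 14.77, 11.49, 12.20 and 15.39 in osteosarcoma, against 13.43 and 13.32 in bone marrow, and the groups overlapped (log2 change 0.08 ± 0.96 SE, adjusted p = 0.958). That value changed sign without osteosarcoma 1 (-0.35) or 4 (-0.56), with median scaling (-0.51), with a replicate block (-0.44) and with the array sets as a block (-1.35). Protease inhibitors were listed together with Plaur, the urokinase receptor. Of 10 measured (15 listed), 5 were higher and 2 lower. Timp1, a metalloprotease inhibitor, rose by 7.76 and Serpinf1, the anti-angiogenic PEDF, by 5.13. The lower genes were Plaur, which fell by 1.76, and Reck, by 1.09. Reck was not called with the array sets as a block, with a replicate block or without osteosarcoma 3 or 4. Without bone marrow 2, only 3 of the inhibitors were higher. Averaged over detected probes, the changes of Mmp13 and Serpinf1 were 5.75 and 2.82, and with the block those of Mmp13, Mmp14 and Timp1 were 9.56, 8.07 and 8.49. The probe of Mmp13 was the brightest on 2 of the osteosarcoma arrays, and whether it was saturated was not tested.

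Osteoclast genes were higher, 9 of 16 measured (19 listed) and 0 lower, with a median of 2.02 (1.86), and 6 exceeded leiomyosarcoma. Ctsk, the collagen-digesting cathepsin of osteoclasts, read 15.27, 11.96, 12.31 and 15.48 in osteosarcoma, against 5.0 and 5.92 in bone marrow (log2 change 8.29 ± 0.92 SE, adjusted p = 2.63e-05). Acp5, the tartrate-resistant acid phosphatase, read 9.89, 6.79, 7.37 and 10.25 in osteosarcoma and was undetected in bone marrow at 4.89 and 4.64 (at least 8.58-fold higher, adjusted p = 0.00273). Osteosarcomas 1 and 4 were high and osteosarcomas 2 and 3 lower for both genes. The same order of arrays was seen for Dcstamp, which is needed for the fusion of osteoclasts, at 9.78, 5.76, 6.68 and 10.83 in osteosarcoma against 4.67 and 5.22 in bone marrow (adjusted p = 0.0317), and for Mmp9 above. Csf1, the growth factor that osteoclast precursors need, rose by 3.85 (4.64 without bone marrow 1, 3.05 without bone marrow 2). Tnfrsf11b, the decoy receptor osteoprotegerin that holds osteoclasts back, ran the other way among the tumours, at 9.02, 9.69, 10.37 and 6.81 in osteosarcoma, and was undetected in bone marrow at 4.55 and 4.55 (at least 11.3-fold higher, adjusted p = 0.00435). Its log2 change was 4.42 with all arrays and 5.14 without osteosarcoma 4. Ctsk and Acp5 changed by 8.89 and 4.40 without osteosarcoma 2. The call of Dcstamp was lost without osteosarcoma 1 or without either bone marrow, and its change was 4.15 without osteosarcoma 2 and 2.46 without osteosarcoma 4. Without bone marrow 2, and with the array sets as a block, 5 and 4 osteoclast genes were higher, and under the block Acp5 and Dcstamp were not called and Tnfrsf11b changed by 6.77. Dcstamp was not called with median scaling or on the 6 arrays alone either.

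**Figure D4:**
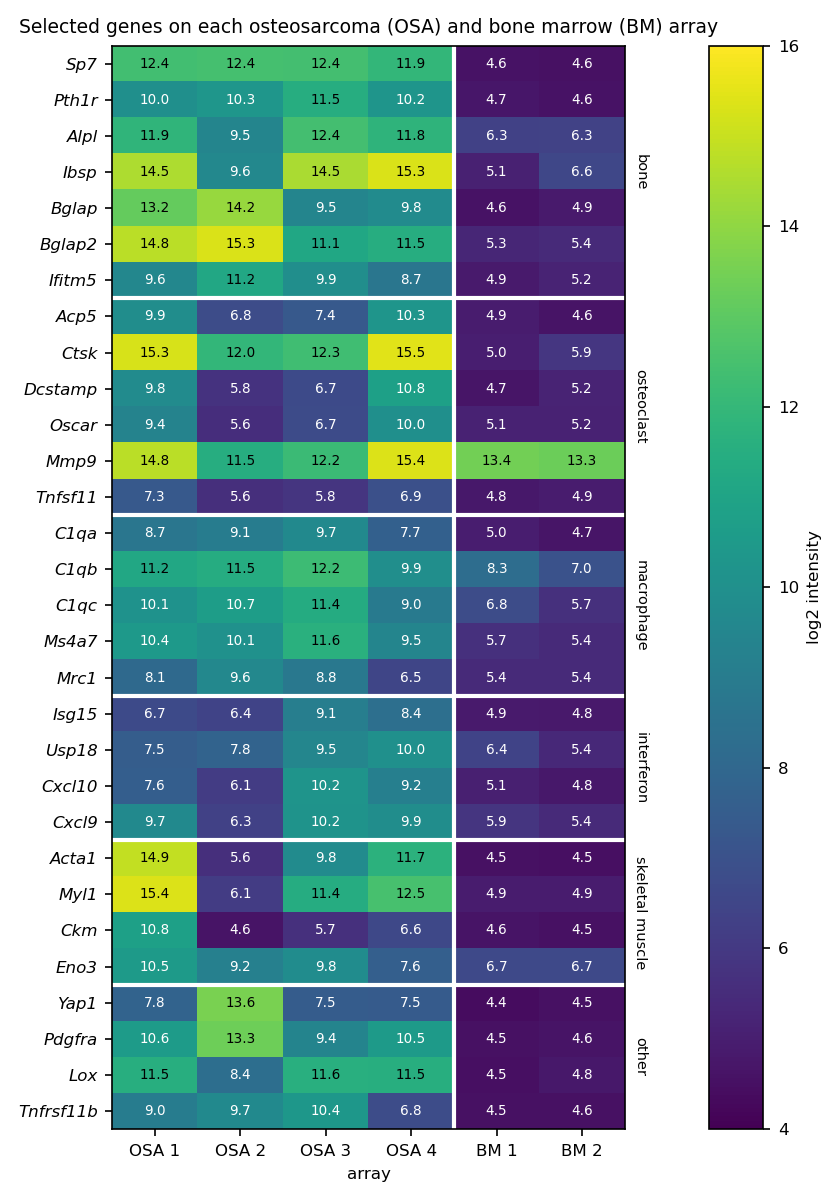
Log2 intensity of 30 genes (rows, grouped by list) on the 4 osteosarcoma arrays (OSA 1 to 4) and the 2 bone marrow arrays (BM 1 and 2), with the value printed in each cell. Osteocalcin genes are high in osteosarcomas 1 and 2, osteoclast genes in 1 and 4, and Acta1 and Myl1 are highest in 1 and lowest in 2.

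Signalling genes of mesenchyme were raised. Of 34 measured growth factors, their receptors and IGF-binding proteins (41 listed), 21 were higher and 2 lower, with a median of 1.5 (1.07). Pdgfra, the PDGF receptor of mesenchymal cells, read 10.58, 13.35, 9.44 and 10.54 in osteosarcoma and was undetected in bone marrow at 4.54 and 4.62 (at least 45.3-fold higher, adjusted p = 4.2e-05), with osteosarcoma 2 highest (log2 change 6.40, and 5.61 without it). Its ligand Pdgfa was at least 54.2-fold higher. Fgfr2, a fibroblast growth factor receptor active in skeletal growth, rose by 5.66 over bone marrow and 3.67 over leiomyosarcoma. The lower genes were Hgf (-2.55), the ligand of Met, and Igf1r (-2.16), the insulin-like growth factor 1 receptor, whose call was lost without either bone marrow. Averaged over detected probes, Fgfr2, Hgf and Igf1r changed by 3.75, -1.71 and -1.18, and with the array sets as a block Hgf changed by -1.84 and Igf1r was not called. Without bone marrow 1, and with the block, 13 of these genes were higher.

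Of 22 measured Wnt genes (29 listed), 10 were higher and 0 lower, with a median of 1.21 (0.89). Ccn4, a Wnt-induced secreted protein, read 11.78, 12.14, 12.01 and 12.33 in osteosarcoma, against 5.36 and 5.69 in bone marrow (log2 change 6.54 ± 0.25 SE, adjusted p = 5.09e-09; 4.2 as the mean of its detected probes). Wif1, a secreted inhibitor that binds Wnt proteins, was at least 6.01-fold higher in osteosarcoma than in bone marrow and exceeded leiomyosarcoma by 3.04. Of 27 measured TGF-beta and BMP genes (36 listed), 13 were higher and 2 lower, with a median of 1.22 (0.62). Bmp8a, a ligand of the bone morphogenetic protein family, read 8.90, 8.64, 9.42 and 9.85 in osteosarcoma and was undetected in bone marrow at 4.78 and 4.65 (at least 13.3-fold higher, adjusted p = 9.99e-07), and exceeded leiomyosarcoma by 4.55. Bmp3, a family member known to limit bone mass, was at least 10.1-fold higher, and its log2 change of 4.2 was 3.51 with the array sets as a block. Inhba, a subunit of activin, fell by 1.49, a call lost without either bone marrow, and Id2, a BMP-induced inhibitor of helix-loop-helix factors, fell by 1.82.

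Of 27 measured mesenchymal transcription factors (32 listed), 12 were higher and 0 lower, with a median of 1.58 (0.88). Gli3, a mediator of Hedgehog signals, was at least 19.3-fold higher and Snai2, a repressor of epithelial genes, at least 14.4-fold; neither was called against leiomyosarcoma. Of 22 measured Hox genes (36 listed), which give cells their position along the body, 9 were higher and 0 lower, with a median of 0.64 (0.29). Hoxc9 read 9.71, 9.86, 10.16 and 9.38 in osteosarcoma and was undetected in bone marrow at 5.43 and 5.13 (at least 19.8-fold higher, adjusted p = 0.000101), with all tumours at a like level. Hoxc6 was at least 8.88-fold higher than in bone marrow and lower than in leiomyosarcoma (log2 change -3.01). Without either bone marrow array 4 Hox genes were higher, and with the array sets as a block 5 were, while Hoxc9 changed by 5.40 in place of 4.50.

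Cartilage genes were partly raised: of 11 measured (22 listed), 3 were higher and 0 lower. Sox9, the cartilage transcription factor, read 10.49, 12.32, 10.40 and 9.35 in osteosarcoma and was undetected in bone marrow at 4.76 and 4.85 (at least 35.8-fold higher, adjusted p = 7.54e-05). Col2a1, the main cartilage collagen, was at least 8.12-fold higher, at 8.34, 7.88, 8.29 and 9.47 in osteosarcoma against 4.58 and 4.66 in bone marrow. Acan, the proteoglycan aggrecan, was not called at 8.28, 4.98, 5.34 and 5.55 in osteosarcoma against 4.54 and 4.37 in bone marrow. Averaged over detected probes, Sox9 and Col2a1 changed by 3.91 and 2.83, and with the array sets as a block Col2a1 changed by 5.08. Without osteosarcoma 2 or without osteosarcoma 4, 5 cartilage genes were higher.

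Genes of actin fibres and of the YAP response were higher for 14 of 24 measured (27 listed) and lower for 0, with a median of 2.55 (1.95), and for 8 with the array sets as a block. Ccn2, a matricellular YAP target, read 12.80, 12.57, 12.71 and 14.04 in osteosarcoma, against 5.69 and 6.07 in bone marrow (log2 change 7.15 ± 0.41 SE, adjusted p = 1.31e-07). Yap1, the transcriptional coactivator itself, read 7.83, 13.58, 7.51 and 7.45 in osteosarcoma and was undetected in bone marrow at 4.41 and 4.55 (at least 12.3-fold higher, adjusted p = 0.0185). Osteosarcoma 2 stood far above the other tumours, the log2 change was 4.61 with it and 3.12 without it, and the call was lost without either bone marrow array, with the array sets as a block, on the 6 arrays alone and with correction of the unsubtracted signals. Tpm2, a tropomyosin, rose by 4.52, by 5.21 without osteosarcoma 2, by 3.74 with the block and by 2.92 as the mean of its detected probes. Of 24 measured adhesion genes of matrix-bound cells (29 listed), 11 were higher and 2 lower. Itga11, a collagen-binding integrin, was at least 36.2-fold higher (log2 change 5.94, and 3.65 as the mean of its detected probes) and Sdc2, a syndecan, rose by 4.2. The lower ones, Zyx (-1.65) and Vcl (-1.20), are proteins of the junctions between integrins and actin.

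Vessel genes were higher for 20 of 28 measured endothelial genes (31 listed) and lower for 1, with a median of 2.56 (2.18). Emcn, an endothelial sialomucin, read 9.33, 8.85, 9.60 and 10.61 in osteosarcoma and was undetected in bone marrow at 4.80 and 4.59 (at least 17.4-fold higher, adjusted p = 1.27e-06). Plvap, a protein of vessel fenestrae, rose by 4.81 and Cdh5, the endothelial cadherin, was at least 5.77-fold higher. All 4 tumours exceeded both marrows for these genes, as they did for 29.2% of all genes. Against leiomyosarcoma 0 of the 28 were called in either direction, where 7.65% of all genes were called. The lower gene was Tal1, which red cell precursors also express. Of 16 measured pericyte and smooth muscle genes (18 listed), 7 were higher and 0 lower. Notch3, a receptor of vessel wall cells, was at least 7.59-fold higher. Without bone marrow 1, 3 of these genes were higher, and Rgs5 and Heyl each lost their call without osteosarcoma 1, 3 or 4, without either bone marrow, with median scaling and on the 6 arrays alone.

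Skeletal muscle genes varied widely among the tumours. Of 25 measured (26 listed), 3 were higher, close to the 14.8% of all genes, and 0 lower, with a median of 2.42 (2.18). Acta1, the actin of muscle fibres, read 14.89, 5.64, 9.79 and 11.73 in osteosarcoma and was undetected in bone marrow at 4.53 and 4.50 (at least 32.8-fold higher, adjusted p = 0.0294). Myl1, a myosin light chain, followed the same order, at 15.36, 6.14, 11.41 and 12.52 in osteosarcoma against 4.9 and 4.93 in bone marrow. Osteosarcoma 1 was highest and osteosarcoma 2 lowest for both. The summed log2 level of the 4 skeletal muscle markers was 51.24, 20.02, 30.50 and 34.33 in osteosarcoma, against 18.34 and 18.17 in bone marrow. The muscle levels move with osteosarcoma 1, and their part in the other results was not tested. Leaving out osteosarcoma 2 raised the count to 15 and the change of Acta1 to 7.62 and of Myl1 to 8.18. The change of Acta1 was 4.54 without osteosarcoma 1, its call was lost without osteosarcoma 4, that of Myl1 without osteosarcoma 1 or 4, the count was 1 without osteosarcoma 4, and it was 0 without either bone marrow. With the array sets as a block, and on the 6 arrays alone, neither Acta1 nor Myl1 was called, and Myl1 changed by 3.72 as the mean of its detected probes.

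Neutrophil genes made up the largest falls. Of 13 measured precursor genes (16 listed), which encode the first, azurophil granules and their regulators, 12 were lower in osteosarcoma and 0 higher, with a median of -5.67 (-5.43). Elane, neutrophil elastase, read 5.50, 5.55, 5.50 and 5.24 in osteosarcoma, against 14.61 and 14.76 in bone marrow (log2 change -9.23 ± 0.19 SE, adjusted p = 6.26e-11). Prtn3, proteinase 3, fell by 8.92, and Ctsg, cathepsin G, was undetected in osteosarcoma and at least 271-fold lower (adjusted p = 1.9e-09). Cebpe, the transcription factor of the late granule genes, was undetected in osteosarcoma at 4.89, 4.97, 5.03 and 4.85 and read 13.04 and 12.81 in bone marrow (at least 207-fold lower, adjusted p = 2.92e-10). The tumours lay at the bottom of the scale for these 4 genes. Mpo, myeloperoxidase of the same granules, did not: it read 9.76, 9.26, 8.37 and 9.31 in osteosarcoma, against 15.54 and 15.68 in bone marrow (log2 change -6.43 ± 0.47 SE, adjusted p = 9.5e-07). Mpo was detected on all 4 osteosarcoma arrays and exceeded leiomyosarcoma by 3.12 (adjusted p = 0.00051). Elane and Prtn3 differed from leiomyosarcoma by 0.08 and 0.04 and were not called. Mpo and Prtn3 changed by -7.21 and -8.29 with the array sets as a block, and Cebpe changed by -6.54 (-7.99 from its brightest probe) as the mean of its detected probes. The 3 other detected probes of Mpo gave changes of -6.95 to -6.57 against bone marrow.

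Of 26 measured genes of mature neutrophils (30 listed), 23 were lower and 0 higher, with a median of -6.60 (-6.23). Ltf, the iron-binding lactoferrin of the specific granules, read 6.36, 5.18, 5.07 and 5.14 in osteosarcoma, against 15.68 and 15.84 in bone marrow (log2 change -10.32 ± 0.34 SE, adjusted p = 1.57e-09; -8.74 as the mean of its detected probes). Lcn2, the siderophore-binding lipocalin, read 5.27, 4.74, 5.46 and 4.70 in osteosarcoma, against 15.75 and 15.75 in bone marrow, a fall of -10.71 on the log2 scale. Ngp, the neutrophilic granule protein, was undetected in osteosarcoma at 4.80, 4.51, 4.88 and 4.63 and read 15.00 and 14.98 in bone marrow (at least 867-fold lower, adjusted p = 6.26e-11). S100a8 and S100a9, the calprotectin subunits, left a graded trace among the tumours: S100a8 read 8.22, 5.25, 7.28 and 5.96 in osteosarcoma, against 15.39 and 15.54 in bone marrow. S100a9 fell by 9.31, and by 9.89 without osteosarcoma 1. For both, osteosarcomas 1 and 3 were the higher ones. Lyz2, lysozyme, which macrophages share, was singled out after its values were seen and fell less, by 3.40, at 11.68, 12.16, 12.02 and 10.67 in osteosarcoma against 15.11 and 14.95 in bone marrow. Of 6 measured subunits of the NADPH oxidase and its partners (7 listed), which make the oxidative burst, 6 were lower, among them Ncf1 (-4.38, and -3.12 as the mean of its detected probes), Rac2 (-3.91) and the membrane subunit Cyba (-2.27).

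The promoters of Ltf and Ngp are shown because these late granule genes fell together and genes of their kind are known targets of C/EBP factors such as Cebpe. Both lie on chromosome 9 on the plus strand of GRCm38.p6 (RefSeq), at chr9:111019042-111019291 for Ltf and chr9:110419558-110419807 for Ngp, and the capitals mark matches on either strand to the C/EBP motif TTNNGNAA.
Ltf: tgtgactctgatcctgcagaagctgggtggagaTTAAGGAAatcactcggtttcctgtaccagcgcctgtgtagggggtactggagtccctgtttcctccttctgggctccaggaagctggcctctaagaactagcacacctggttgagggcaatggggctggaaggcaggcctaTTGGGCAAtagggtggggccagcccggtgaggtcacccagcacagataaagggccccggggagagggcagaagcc
Ngp: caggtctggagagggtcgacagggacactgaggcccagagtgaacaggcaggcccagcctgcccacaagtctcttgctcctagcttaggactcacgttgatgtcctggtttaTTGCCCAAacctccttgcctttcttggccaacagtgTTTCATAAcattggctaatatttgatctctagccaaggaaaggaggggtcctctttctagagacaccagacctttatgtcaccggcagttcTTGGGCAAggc
Ltf holds matches that begin 217 and 75 bases before its start, and Ngp holds 3, at 138, 102 and 11. The motif was found in 36.8% of the 32851 windows, in 33.9% of the tested genes with a window, in 39.8% of the called lower genes with a window and in 30.7% of the called higher ones, so its presence in a single promoter is common.

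Eosinophil and basophil genes were lower as well. Of 16 measured genes of mast cells, basophils and eosinophils (23 listed), 13 were lower and 0 higher, with a median of -3.95 (-3.66), and 11 of the 16 were detected on no osteosarcoma array. Prg2, the eosinophil major basic protein, was undetected in osteosarcoma at 5.05, 4.9, 5.11 and 5.04 and read 15.41 and 14.59 in bone marrow (at least 873-fold lower, adjusted p = 2.92e-10). Ear3, an eosinophil-associated ribonuclease, fell by 9.51 (-8.75 as the mean of its detected probes), though its close relatives on the genome make the exact member uncertain. Prss34, a basophil and mast cell protease, was undetected in osteosarcoma at 5.09, 4.67, 4.87 and 4.88 and read 12.81 and 11.63 in bone marrow (at least 127-fold lower, adjusted p = 5.69e-09). Bone marrow 1 exceeded bone marrow 2 for both Prg2 and Prss34, and the tumours were level. Hdc, the histidine decarboxylase that makes histamine, fell by 6.55, by 5.88 with the array sets as a block and by 5.76 as the mean of its detected probes, and stayed detected in all 4 tumours. The log2 change of Prss34 was -6.75 without bone marrow 1 and -7.94 without bone marrow 2.

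Of 20 measured red cell genes (34 listed), 13 were lower and 0 higher, with a median of -1.92 (-1.60). Slc4a1, the band 3 anion exchanger of red cells, read 5.02, 5.04, 6.31 and 4.96 in osteosarcoma, against 12.59 and 11.69 in bone marrow (log2 change -6.81 ± 0.74 SE, adjusted p = 2.17e-05). Nfe2, a transcription factor of red cell precursors and megakaryocytes, was at least 56.2-fold lower, and Klf1, a red cell transcription factor, fell by 2.72. Hba-a1, an alpha globin, was still at 12.90, 12.73, 13.78 and 10.37 in osteosarcoma, against 15.89 and 15.89 in bone marrow (log2 change -3.45 ± 1.20 SE, adjusted p = 0.0413). The globin was highest in osteosarcoma 3 and lowest in osteosarcoma 4, and the call was lost without osteosarcoma 1, 2 or 4, without either bone marrow and with the array sets as a block (-5.19). Its probe was the brightest on both bone marrow arrays, and whether it was saturated there was not tested. Alas2, the first enzyme of haem synthesis in red cells, followed the same order, at 5.77, 5.70, 7.28 and 4.74 in osteosarcoma against 11.76 and 10.44 in bone marrow (log2 change -5.23 ± 0.94 SE, adjusted p = 0.000999; -4.57 without bone marrow 1 and -5.89 without bone marrow 2). With the block Slc4a1 and Alas2 changed by -8.48 and -7.15. Its promoter, at chrX:150547167-150547416 on the plus strand of GRCm38.p6 (RefSeq), is shown because Alas2 is a known target of GATA factors, with a match on the opposite strand to the GATA motif AGATAA in capitals, 86 bases before the start.
Alas2: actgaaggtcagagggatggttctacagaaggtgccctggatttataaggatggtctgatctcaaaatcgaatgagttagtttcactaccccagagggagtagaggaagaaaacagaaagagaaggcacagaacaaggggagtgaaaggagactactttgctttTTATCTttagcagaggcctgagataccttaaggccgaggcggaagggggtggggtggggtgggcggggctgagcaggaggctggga
This motif was found in 10% of windows, in 7.6% of the tested genes with a window, in 9.1% of the called lower genes and in 5.7% of the called higher ones. Of 19 measured haem and iron genes (20 listed), 7 were lower and 1 higher, with a median of -0.34 (-0.34). Alas1, the first haem enzyme of other cells, fell by 2.41, and Slc11a2, the iron importer, was the higher one at 2.06, though not called with the array sets as a block. Without bone marrow 1, 4 haem and iron genes were lower.

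Platelet precursor genes were lower for 11 of 16 measured (22 listed) and higher for 0, with a median of -1.90 (-1.90). Gp5, a platelet membrane glycoprotein, was undetected in osteosarcoma and at least 7.98-fold lower, and Ppbp, a platelet chemokine, fell by 4.06. Pf4, another platelet chemokine, remained at 8.47, 9.54, 8.97 and 7.26 in osteosarcoma, against 10.38 and 10.10 in bone marrow (log2 change -1.68 ± 0.50 SE, adjusted p = 0.02), a call that was lost without either bone marrow array, with the array sets as a block and on the 6 arrays alone.

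Of 21 measured B cell genes (32 listed), 15 were lower and 0 higher, with a median of -2.52 (-1.94). Vpreb3, a partner of the B precursor receptor, was undetected in osteosarcoma at 4.75, 4.88, 4.99 and 4.60 and read 10.23 and 8.47 in bone marrow (at least 17.4-fold lower, adjusted p = 1.86e-06). Cd79b, a signalling chain of the B cell receptor, fell by 3.99, at 5.23, 4.98, 5.49 and 4.73 in osteosarcoma against 10.22 and 7.98 in bone marrow. Both genes were higher in bone marrow 1 than in bone marrow 2, so that the change of Cd79b was -2.87 without the first and -5.11 without the second, and that of Vpreb3 -3.66 and -5.42. Cd79b changed by -3.15 with the array sets as a block. Of 17 measured T and NK cell genes (31 listed), 7 were lower, 1 higher and 9 not called, with a median of -0.88 (-0.88). The largest falls were those of Nkg7, a granule protein of cytotoxic cells, by 6.75, and Cd3d, a chain of the T cell receptor complex, by 6.32. Of the same complex, Cd3e changed by -1.35, and by -0.77 without bone marrow 1, and Cd3g was not called. With the array sets as a block Cd3e was not called either. The higher gene was Cd247, the zeta chain, at 8.24, 8.29, 7.13 and 7.42 in osteosarcoma against 5.83 and 5.92 in bone marrow (log2 change 1.90 ± 0.33 SE, adjusted p = 0.000845). Without bone marrow 1, and with the array sets as a block, 3 T and NK cell genes were lower.

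Blood progenitor genes were lower for 11 of 22 measured (26 listed) and higher for 1, with a median of -0.90 (-0.90). Ikzf1, the lymphoid factor Ikaros, and Lyl1, a helix-loop-helix factor of blood formation, fell by 4.12 and 4.22, and Ptprc, the CD45 phosphatase of all white cells, by 2.45 (-1.81 as the mean of its detected probes). Kit, the stem cell factor receptor, fell by 2.69. Cd93, which endothelium also expresses, was the higher one (1.44). Of 16 measured adhesion genes of blood cells (18 listed), 10 were lower and 1 higher. Itgb2l, an integrin beta chain of neutrophils, was at least 22.7-fold lower, and Selplg, the selectin ligand of white cells, fell by 3.28. Pecam1, which endothelium shares, was the higher gene (1.03), and its call was lost without osteosarcoma 3 or 4, without either bone marrow, with the array sets as a block and as the mean of its detected probes.

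Macrophage genes went against the other blood lists: of 29 measured (31 listed), 13 were higher and 3 lower, with a median of 1.46 (1.23). Against leiomyosarcoma, 1 of the 29 was called higher and 5 lower, with a median of -1.0. Over all genes those shares were 3.31% and 4.34%. C1qa, a chain of the complement protein C1q made by tissue macrophages, read 8.69, 9.05, 9.69 and 7.68 in osteosarcoma and was undetected in bone marrow at 4.96 and 4.68 (at least 9.87-fold higher, adjusted p = 5.7e-05). C1qb and C1qc rose by 3.54 and 4.04. All chains were highest in osteosarcoma 3 and lowest in osteosarcoma 4, an order unlike that of the osteoclast genes. Csf1r, the receptor of Csf1, rose by 1.54 (adjusted p = 0.0145), a call lost without either bone marrow and with the array sets as a block. The 3 lower genes were Fcgr3 (-2.52), Cd14 (-2.17) and Tyrobp (-1.74), which monocytes and neutrophils express as well. Without bone marrow 1, 8 macrophage genes were higher and 1 lower, Fcgr3 and Tyrobp were not called, and C1qb changed by 4.17 (2.91 without bone marrow 2). With the array sets as a block, 7 were higher and 1 was lower, and Fcgr3 and Tyrobp were not called.

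Among 13 measured genes of MHC class II presentation (13 listed), 4 were lower and 0 higher, with a median of -0.93 (-0.42). H2-Oa, a modulator of peptide loading that B cells express, was undetected in osteosarcoma at 4.91, 4.84, 5.10 and 4.71 and read 9.15 and 7.68 in bone marrow (at least 9.1-fold lower, adjusted p = 8.8e-05). Its change was -2.79 without bone marrow 1 and -4.26 without bone marrow 2. The other 3, H2-DMa, H2-DMb1 and H2-DMb2, lost their calls without bone marrow 1 and with the array sets as a block, under which H2-Oa changed by -2.49. Of 24 measured interferon-stimulated genes (31 listed), 4 were higher and 0 lower, a share close to the 14.8% of all genes, with a median of 1.13 (1.13). Cxcl10, a chemokine for activated T cells, read 7.57, 6.14, 10.20 and 9.17 in osteosarcoma and was undetected in bone marrow at 5.06 and 4.78 (at least 6.94-fold higher, adjusted p = 0.0121). Isg15, a ubiquitin-like protein, was likewise highest in osteosarcomas 3 and 4, at 6.70, 6.40, 9.14 and 8.36 in osteosarcoma against 4.87 and 4.84 in bone marrow. Osteosarcoma 2 was the lowest for both genes. Without osteosarcoma 2 the count was 10 and the change of Cxcl10 was 4.06, without osteosarcoma 3 that change was 2.70, and the count was 2 without bone marrow 1 and 0 without bone marrow 2. Cxcl10 and Isg15 lost their calls without either bone marrow and with the array sets as a block (2.25 and 1.56), where the count was 0, and Cxcl10 changed by 2.34 as the mean of its detected probes.

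Chemokines moved both ways, 7 higher and 6 lower of 23 measured (31 listed). Ccl12 and Ccl7, ligands for monocyte receptors, were at least 10.3-fold and at least 7.35-fold higher, and Ccl7 read 7.48, 8.03, 10.38 and 7.52 in osteosarcoma against 4.74 and 4.54 in bone marrow. Osteosarcoma 3 was highest, and the change of Ccl7 was 3.71 with it, 3.03 without it and 4.40 with the array sets as a block. Cxcr4, the receptor that keeps blood cells in the marrow, fell by 3.20, and Ccl3, a chemokine of white cells, by 3.19 (-4.51 with the block). Cxcl12, the ligand of Cxcr4 in the marrow niche, was not called, at 10.60, 6.11, 9.01 and 10.27 in osteosarcoma against 10.36 and 9.98 in bone marrow (log2 change -1.17 ± 0.94 SE, adjusted p = 0.359). Without bone marrow 1 and 2, 4 and 3 chemokine genes were higher.

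Cell division genes were not raised over marrow, itself a dividing tissue. Of 22 measured mitosis genes (29 listed), 4 were lower and 1 higher, with a median of -0.62 (-0.62). Cdk1, the kinase that drives mitosis, read 8.67, 9.80, 9.45 and 10.03 in osteosarcoma, against 10.33 and 10.49 in bone marrow (log2 change -0.92 ± 0.40 SE, adjusted p = 0.089). Its groups did not overlap, but the test was not passed, except with median scaling, where Cdk1 was called lower (-1.04, adjusted p = 0.0484 in that limma fit). Kif11, a spindle motor, fell by 1.58. Kif23, a motor of cytokinesis, was the higher one at 4.11, but its 3 other detected probes gave -1.39 to -0.54, so its probes disagree in sign, and their mean (0.22) was not called. Of 28 measured DNA replication genes (32 listed), 11 were lower and 0 higher, with a median of -0.93 (-0.93). Mcm5, a subunit of the replicative helicase, read 10.22, 11.23, 10.72 and 10.18 in osteosarcoma, against 12.53 and 12.64 in bone marrow (log2 change -2.0 ± 0.31 SE, adjusted p = 0.000348). Fen1, a nuclease of lagging strand synthesis, fell by 1.80. Without bone marrow 2, 2 mitosis and 6 replication genes were lower.

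Of 36 measured replication-dependent histone genes (39 listed), 26 were lower and 0 higher, with a median of -1.54 (-1.51). H3c6 read 7.09, 7.32, 8.96 and 7.53 in osteosarcoma, against 11.52 and 11.40 in bone marrow (log2 change -3.74 ± 0.51 SE, adjusted p = 0.000128). Osteosarcoma 3 was the highest tumour for H3c6 and for H4c12 (8.07). H3c6 changed by -4.51 and 15 histone genes were lower with the array sets as a block. These genes are near-identical copies, so single members are uncertain, and 17 and 15 were lower without bone marrow 1 and 2.

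Regulators of the G1 phase split. Of 18 measured (21 listed), 3 were higher, close to the 14.8% of all genes, and 6 lower. Ccnd1, cyclin D1, read 11.10, 12.86, 12 and 11.96 in osteosarcoma, against 7.58 and 6.40 in bone marrow (log2 change 4.99 ± 0.48 SE, adjusted p = 7.82e-06; 5.58 without bone marrow 1 and 4.40 without bone marrow 2). Ccnd3, cyclin D3 of blood cells, went the other way, at 10.69, 10.53, 10.79 and 10.83 in osteosarcoma against 12.94 and 13.19 in bone marrow (log2 change -2.36 ± 0.20 SE, adjusted p = 2.7e-06). Ccnd1 and Ccnd3 thus differed in opposite directions with no overlap of the groups, which held for 56.8% of all genes. Ccnd2, the other cyclin D gene, was not called. Cdkn2a, the locus of the inhibitors p16 and p19Arf, rose by 2.71 (1.4 as the mean of its detected probes), at 6.81, 7.57, 7.52 and 6.99 in osteosarcoma against 4.55 and 4.48 in bone marrow, and Cdkn2d, another inhibitor of the cyclin D kinases, fell by 2.72. Myc did not differ beyond the test (0.04, and -0.20 with median scaling). Without bone marrow 2, 3 G1 genes were lower.

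Of 23 measured genes known as p53 targets (28 listed), 4 were higher, close to the 14.8% of all genes, and 5 lower. Their median was -0.04 (-0.04). Cdkn1a, the cell cycle inhibitor p21, read 10.79, 9.67, 10.85 and 8.61 in osteosarcoma, against 8.25 and 8.77 in bone marrow, and was not called (log2 change 1.47 ± 0.94 SE, adjusted p = 0.244). Mdm2 and Ccng1, classical targets chosen after their values were seen, changed by -0.65 and -0.05, not called. Phlda3, an inhibitor of Akt, was at least 8.51-fold higher, and Xpc, a DNA damage sensor, fell by 3.73. The lower count was 3 without either bone marrow array.

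Of 39 measured respiratory chain genes (47 listed), 5 were higher, a share close to the 14.8% of all genes, and 0 lower. Their median was 0.46 (0.46), and 1 gene was higher with median scaling of the arrays or with the array sets as a block. Without osteosarcoma 2, osteosarcoma 4 or bone marrow 2, 3 were higher. Of 18 measured glycolysis genes (24 listed), 3 were higher and 3 lower, close to the shares of all genes (14.8% and 13%). Hk3, the hexokinase of white cells, read 5.97, 7.18, 7.03 and 6.32 in osteosarcoma, against 11.78 and 11.76 in bone marrow (log2 change -5.15 ± 0.37 SE, adjusted p = 8.25e-07), and Slc2a3, a glucose transporter of white cells, fell by 3.52. Hk3 and Slc2a3 changed by -5.76 and -4.67 with the array sets as a block. Of 17 measured hypoxia genes (21 listed), 6 were higher and 2 lower, and 3 were higher without bone marrow 2. Angptl4, a lipase inhibitor induced by hypoxia, rose by 3.16, though it was not called with the array sets as a block (adjusted p = 0.0588 in that limma fit), and Mxi1, a Myc antagonist, fell by 1.84. Of 27 measured ribosomal protein genes (40 listed), 1 was higher and 0 lower, with a median of 0.15 (0.15). Of 21 measured immediate early and heat shock genes (23 listed), 2 were higher and 5 lower. Zfp36, which destabilises mRNA, fell by 3.23, at 9.11, 8.64, 9.25 and 9.39 in osteosarcoma against 12.40 and 12.27 in bone marrow, and Fos, an AP-1 subunit, fell by 2.69 but was not called with the array sets as a block (adjusted p = 0.0611 in that limma fit). Without osteosarcoma 3, 8 of these genes were lower, and without bone marrow 1, 3 were.

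Of 17 measured niche genes (22 listed), 7 were higher and 2 lower, with a median of 0.54 (0.50). Ptn, the growth factor pleiotrophin, was at least 22.6-fold higher, and Nes, an intermediate filament of stromal and vessel cells, at least 10.2-fold (log2 change 4.07, and 2.55 as the mean of its detected probes). Dpp4, a cell surface peptidase, fell by 3.09, a call lost without bone marrow 1 and with the array sets as a block. Of 12 measured fat cell genes (18 listed), 1 was higher and 2 lower. Adipoq, adiponectin, read 6.29, 5.32, 5.61 and 4.97 in osteosarcoma, against 6.64 and 5.62 in bone marrow, and was not called. Dgat2, an enzyme of triglyceride synthesis, fell by 3.40. Car3, a carbonic anhydrase of fat and muscle, was the higher one, at 12.37, 9.43, 7.83 and 6.57 in osteosarcoma against 4.85 and 4.56 in bone marrow; its call was lost without either bone marrow, with the array sets as a block and on the 6 arrays alone, and its log2 change was 4.35 with all arrays, 3.24 without osteosarcoma 1 and 5.17 without osteosarcoma 4.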

How the data were processed

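Total RNA of 12 fresh-frozen samples was measured on 1-colour Illumina bead arrays of 45281 probes. The authors deposited average bead signal intensity per probe, with 1 background constant subtracted per array and no normalisation between arrays, and a detection p-value per probe. The authors' second table of intensity values equals the first plus that constant, to within 0.00969. The scanner software and the steps before deposit are not given in the sources used here.

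Of the probes, 34885 have 1 gene symbol in the platform annotation, 18 have several and 10378 are not listed there. Signals were background-corrected with limma's neqc (offset 16) and quantile-normalised. Probes with a detection p under 0.05 on at least 2 arrays were kept, and the probe with the highest mean stood for its gene. limma 3.58.1 in R 4.3.3 fitted 4 groups on 12 arrays (8 residual and 3.634 prior degrees of freedom), with Benjamini-Hochberg adjustment over 11754 genes. Called means an adjusted p under 0.05 and a log2 change of at least 1. A gene undetected in a group was set against the lowest detected signal of each array there.

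In simulated data on 11754 genes for the comparison of osteosarcoma with bone marrow, 81% of genes planted with a log2 change of 2 were recovered, 99% of those with 4, and 7 genes were called falsely. The simulated noise was independent between genes and arrays, with few genes changed and no array-set difference or detection limit. It therefore does not give the error among the real calls. Named genes were the 10 largest rises and falls without overlap, up to 5 called members per list in its more frequent direction and up to 3 in the other, and defining genes of each lineage. Genes and lists were chosen with earlier results of these data known. The number of arrays limits the precision. Tables and figures used Python 3.11.15, pandas 2.3.3 and matplotlib 3.10.9.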

Additional observations from a re-analysis of the deposited data

Results flagged for a closer look

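An array was set apart for a gene where its gap to the nearest other osteosarcoma made up more of the group's whole range than the 95% critical value of Dixon's test for 4 samples. Of 291 named genes tested in osteosarcoma, 20 had such an array, and chance sets apart about 1 in 20. Osteosarcoma 1 stood above the other tumours for Ltf (6.36, others 5.07 to 5.18) and Trim10 (5.69, others 4.40 to 4.49). Osteosarcoma 2 stood above the other tumours for Yap1 (13.58, others 7.45 to 7.83) and Efnb1 (11.02). Osteosarcoma 2 stood below the other tumours for Ibsp (9.58, others 14.49 to 15.30), Lox (8.36, others 11.53 to 11.58), Plaur (6.68, others 7.18 to 7.27), Slc11a2 (6.62, others 7.94 to 8.18), Cxcl9 (6.30, others 9.70 to 10.15), Nfatc4 (8.18, others 9.88 to 9.99) and Dusp1 (8.36, others 9.50 to 9.63). Osteosarcoma 3 stood above the other tumours for Slc4a1 (6.31, others 4.96 to 5.04), Gp5 (4.86, others 4.63 to 4.66) and H4c12 (8.07, others 6.23 to 6.51). Osteosarcoma 4 stood above the other tumours for Ccn2 (14.04, others 12.57 to 12.80), Atp5b (15.68, others 15.32 to 15.33), Ndufa4 (12.80, others 12.04 to 12.09) and Mdm2 (9.89, others 9.34 to 9.43). Osteosarcoma 4 stood below the other tumours for Elane (5.24, others 5.50 to 5.55) and Sp7 (11.93, others 12.39 to 12.45).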

How the results depend on the processing

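None of the 276 called genes checked changed direction under any of the alternatives tried, whereas uncalled genes near 0, such as Mmp9, Myc and Xbp1, changed sign under some. Those 276 were called in these same data and mostly picked for large changes, so a change of sign was unlikely from the start. Dropping the detection filter or the minimum fold, or asking for detection on at least 4 arrays, moved none of them by over 1.5 times. These settings reused the same normalised values, so the changes could hardly move. Without the detection filter 16 of the 276 calls were lost. With detection on at least 4 arrays, 250 of the 276 genes had a value. Leaving out 1 array gave 1254 to 1870 higher and 1242 to 1569 lower genes, with the lowest counts without either bone marrow array, where 46 and 48 of those 276 calls were lost. With the array sets of high and low background constant as a block, 1105 genes were higher and 1110 lower, and 64 of the 276 calls were lost; osteosarcoma and bone marrow lie in different sets, so this fit rests on leiomyosarcoma. Median scaling moved the median of all genes to -0.20 and gave 1415 higher and 1739 lower genes, so that 44.9% of calls were higher, against 53.3% with quantile normalisation; 22 of the 276 changes moved by over 1.5 times. Background correction of the unsubtracted signals gave 1250 higher and 1096 lower genes and made 272 of 276 changes smaller. Averaging the detected probes of a gene moved 54 of 276 by over 1.5 times. Detection on at least 4 arrays left 10466 genes to test. The replicate numbers used here follow the order of the samples and are not part of their codes. With 2 bone marrows, whose deviations mirror each other, the correlations of deviations (0.0384 and 0.0266) cannot decide whether samples are paired. A replicate block gave 1634 higher and 1443 lower genes.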

Other observations

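Most called genes lay outside the gene lists: 1471 of the higher and 1317 of the lower genes. Those named here were picked after their values were seen, from the 30 largest changes in each direction outside the lists, passing over larger ones such as Scarf2 and Aebp1. Tnc, the matrix protein tenascin C, rose by 7.60, Bgn, the small proteoglycan biglycan, by 6.48, and Dcn, decorin, by 6.15. The 6 other detected probes of Tnc gave 0.58 to 7.70, and as the mean of their detected probes Tnc and Dcn changed by 3.72 and 2.98. With the array sets as a block Bgn changed by 5.80. Hspg2, the basement membrane proteoglycan perlecan, was at least 71.5-fold higher (adjusted p = 6.71e-10), and Olfml3, a secreted olfactomedin family protein, at least 125-fold. Panx3, a channel of bone and cartilage cells, read 12.61, 11.86, 13.73 and 10.65 in osteosarcoma, against 5.69 and 5.98 in bone marrow, and exceeded leiomyosarcoma by 6.84. Cd276, an immune checkpoint molecule, was at least 29.0-fold higher. Adjusted p-values are from the limma fit over all genes.

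Of the lower ones, Ifitm6, an interferon-induced membrane protein family member, was at least 173-fold lower, and Fcnb, a secreted ficolin of myeloid cells, at least 70.1-fold. Chil1 and Chil4, chitinase-like proteins, fell by 7.93 and 9.07, and Chil4 changed by -5.63 with the array sets as a block.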
